A study of Oryza sativa Japonica Group with 18 samples.

Results

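A group of 104 probe sets on the Affymetrix Rice Genome Array stayed low in K+-starved rice roots at both 3 d and 5 d, and it is described here out of 57194 probe sets on the array. A probe set was a member when its mean signal in K+-deficient roots (LK) was 0.6 or less of that in K+-replete roots (CK) at both times, every LK array lay below every CK array at both times, and the CK mean was 100 or more at both. The roots came from hydroponic seedlings of the japonica cultivar Nipponbare that had grown for 2 weeks in complete solution. In the CK groups the solution kept its 0.512 mM K2SO4, and in the LK groups that salt was left out, the other salts being common to both. Roots were taken 6 h, 3 d and 5 d after the transfer, with 3 arrays in each of the 6 groups, 18 in all, and the RNA of an array was a pool of 5 seedlings. CK roots were sampled anew at each time, so the LK and CK comparisons at 6 h, 3 d and 5 d have no array in common. Values are linear signals in the arbitrary units of the array. Array medians lay between 22.1 and 23.4.

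Rice roots acquire K+ from the surrounding solution and pass it on to the shoot, and a seedling moved to a solution without it draws on the K+ it already holds. Roots deprived of a nutrient are known to change transcripts for transporters, for enzymes and structural proteins of the cell wall, and for defence-related and hormone-responsive proteins. The annotated members included pathogenesis-related proteins, a nitrate transporter, a metal-chelate transporter, secreted peroxidases, germin-like proteins, a protease and a cytochrome P450, beside genes with only a domain name.

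The 3 d and 5 d values chose the members and are therefore a description. With the CK limit, 15914 probe sets remained. Of these, 138 had a ratio of 0.6 or less at 3 d, 300 had it at 5 d and 105 had it at both, and 104 of the 105 also had arrays that did not overlap. Over the 25165 probe sets with the highest mean signal, which hold all 104 members, every LK array lay below every CK array in 11.3% at 3 d and in 22.7% at 5 d. The LK/CK ratios of the members ran from 0.0254 to 0.5996 at 3 d, with a median of 0.4998, and from 0.0178 to 0.597 at 5 d, with a median of 0.404. Among the 25165 the medians were 1.03 and 0.979. Near the limit, the 3 members with the highest ratio at either time were Os.19861.1.S1_at (0.5996), OsAffx.24066.1.S1_x_at (0.5972) and Os.50858.1.S1_at (0.597). The nearest probe sets outside were Os.51246.1.S1_at (0.6044), Os.34167.2.S1_at (0.6074) and Os.19575.1.A1_at (0.6086). Membership at this end thus rested on differences of about a hundredth in the ratio.

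**Figure D1:**
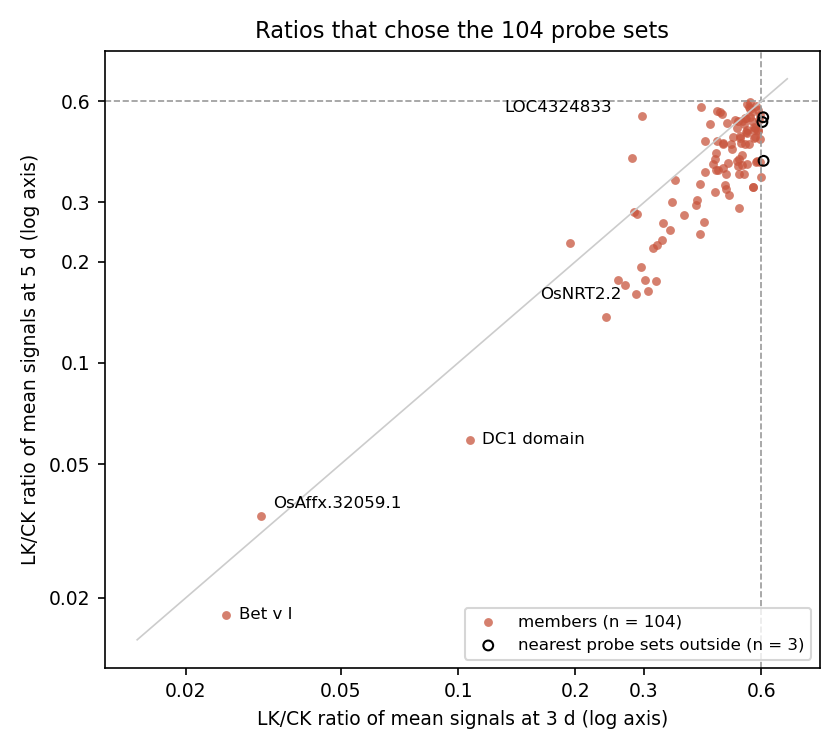
LK/CK ratio of mean signals at 3 d (x axis) and 5 d (y axis), both on log axes, for the 104 members (filled points) and the 3 nearest probe sets outside (open points). Dashed lines mark the ratio of 0.6 and the grey line equal ratios. Of the 104 members, 52 lie at 0.5 or less at 3 d and 78 at 5 d, 3 lie at or below 0.107 at 3 d, and LOC4324833 is the member farthest above the grey line.

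The array's tables gave 1 gene for 59 members, which made 55 different genes, and no gene for 45. Only 17 members had a name or a description. Members without a gene were 43.3% of the group, against 32.4% of the 25165, and 28.8% of the members came from designs based on predicted genes (names starting OsAffx), against 18.1%. Probe sets that can bind several transcripts made up 20.2% of the members and 20.9% of the 25165. Of the member genes that could be placed on a chromosome, 9 lay on chromosome 6 (16.7%, against 7.84% of the genes measured) and 1 on chromosome 3 (1.85%, against 14.2%). Chromosomes 6 and 3 were picked after the shares of all chromosomes were seen. Chromosome 1 also held 9 member genes (16.7%, against 14.9%), and chromosome 9 also held 1 (1.85%, against 5.3%). These shares are given without a test.

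Pathogenesis-related proteins, which accumulate in plants after infection or stress, included the member with the lowest ratios at 3 d and 5 d and the probe set with the highest CK mean over those times. Os.47802.1.A1_at detects Os12g0555000, of the Bet v I family of small proteins that can bind hydrophobic ligands. Its CK arrays read 1389, 1169 and 1249 at 3 d, and its LK arrays 23.7, 27.4 and 45.6. At 5 d the CK arrays read 974, 1044 and 1188, and the LK arrays 16.1, 20.5 and 20.4. CK was 39.4 times LK at 3 d and 56.3 times at 5 d. The LK values lay near the array median, where background is part of the signal. Background was not estimated, so the size of these ratios is uncertain. The probe set for pathogenesis-related protein 1 (Os.19861.1.S1_at), a secreted protein used as a marker of defence, was the probe set with that highest CK mean. It read 3928, 4126 and 3990 in CK roots and 2734, 1805 and 2682 in LK roots at 3 d. At 5 d it read 3583, 3631 and 3685 in CK roots and 1660, 1241 and 993 in LK roots. The LK arrays were still far above background, and their ratio went from 0.5996 to 0.357. An NBS-LRR-like gene (YR49, LOC4327841), from the family of intracellular receptors for pathogen effectors, had ratios of 0.56 and 0.577.

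Other deep members had little or no annotation. A DC1 domain gene (Os07g0611500, OsAffx.28867.2.S1_at), whose cysteine- and histidine-rich domain is common in plant proteins, read 243, 239.5 and 188 in CK roots and 16.7, 20.7 and 34.4 in LK roots at 3 d. At 5 d it read 346, 337 and 293 against 22.2, 15.3 and 20.1. OsAffx.32059.1.S1_at, for which no gene was given, read 638, 609 and 415 against 14.6, 14.8 and 22.5 at 3 d, and 396, 376 and 486 against 13.5, 15.2 and 15.2 at 5 d. These probe sets and the Bet v I probe set had LK values at or near the array median on every array at 5 d. They were also the 3 members with a ratio of 0.1 or less at 5 d. The cysteine-rich domain gene Os02g0286933 (OsAffx.24308.1.S1_s_at) had ratios of 0.257 and 0.176. Of the rest of the 10 deepest members, OsAffx.20077.1 with its pair of probe sets, OsAffx.8060.1.S1_at, OsAffx.24629.1.S1_at and OsAffx.985.2.S1_at have no gene in the tables. OsAffx.8060.1.S1_at varied most among replicates at 3 d, where CK arrays read 89.1, 285 and 208 and LK arrays 9.94, 38.9 and 63.8, with a smaller gap between groups than the range within each.

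Transport proteins were represented by 2 named members. Os.49093.2.S1_x_at detects OsNRT2.2 (LOC4328052), of the high-affinity nitrate transporter family. It read 356, 406 and 339 in CK roots and 125, 90.1 and 124 in LK roots at 3 d. At 5 d the CK arrays read 364, 351 and 371, and the LK arrays 66.6, 68.7 and 43.0, which gave ratios of 0.308 and 0.164. The x_at ending marks a probe set that may bind transcripts of related genes too, so the signal need not come from OsNRT2.2 alone. OsYSL12 (LOC4336442), of the Yellow Stripe-Like family that moves metals bound to chelators, read 693, 663 and 649.9 in CK roots and 358, 286 and 311 in LK roots at 3 d. At 5 d it read 927, 777 and 743 against 493, 445 and 407. Its ratio was higher at 5 d (0.55) than at 3 d (0.476), unlike that of most members.

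Enzymes and cell wall proteins formed the largest annotated set. OsSub6 (LOC4325624), a subtilisin-like serine protease gene, read 694, 727 and 666 in CK roots and 197, 214 and 264 in LK roots at 3 d. At 5 d it read 690.4, 727 and 818 against 176, 166 and 159.9. CYP701A9 (LOC4341340), a relative of the ent-kaurene oxidase of gibberellin synthesis, had ratios of 0.431 and 0.369. Germin-like proteins are cell wall glycoproteins of the cupin fold. GLP2 (LOC4344846) had ratios of 0.459 and 0.422 and OsGER6 (LOC4344843) had 0.569 and 0.524, and both were among the 5 members with the highest CK mean over 3 d and 5 d. They lie near each other on chromosome 8, with 3 genes between them. The member genes LOC4341168 and LOC4341171 on chromosome 6 also had 3 genes between them. The other 2 of the 5 members with the highest CK mean, LOC4345030 (0.581 and 0.397) and LOC4325984 (0.58 and 0.469), have no description. Class III peroxidases are secreted haem enzymes that use hydrogen peroxide in wall formation and defence. OsPrx30 (LOC4328841) had ratios of 0.553 and 0.39 on one probe set and 0.493 and 0.394 on the second, and OsPrx81 (LOC4341171) had 0.504 and 0.431, then 0.527 and 0.404. OsIRL1 (LOC4336911), for an intracellular leucine-rich repeat protein, had 0.48 and 0.451, and a transcript similar to a small auxin up RNA (OsAffx.24695.1.S1_at) had 0.524 and 0.525.

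**Figure D2:**
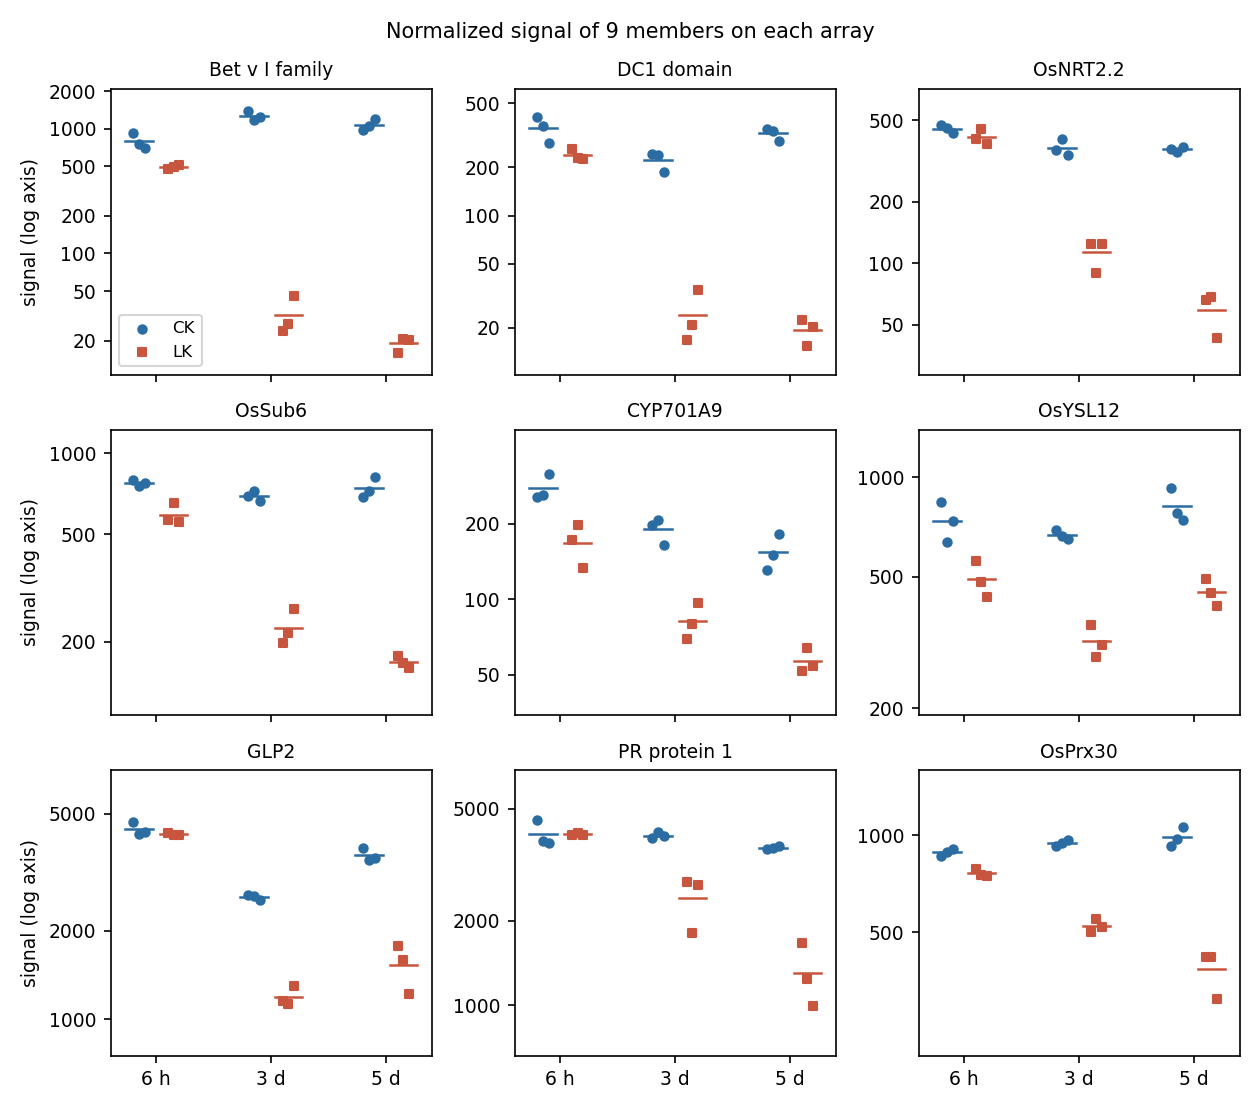
Normalized signal (log axis, arbitrary units) on each array for 9 annotated members at 6 h, 3 d and 5 d, with CK as circles, LK as squares and the mean of 3 arrays as a bar. LK lies below CK without overlap at 3 d and 5 d in every panel, as the selection requires, and at 6 h in 6 of the 9 panels (not in OsNRT2.2, GLP2 and PR protein 1).

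Other probe sets gave a partial check on the same RNA. The 4 genes with a pair of member probe sets had similar ratios on both, although such probe sets share sequence and are not replicates. For 13 member genes the array held 16 further probe sets outside the group, 10 of which were bright enough to be tested. In 8 of these 10 the ratio was under 0.7 at both times, and in 7 the arrays did not overlap at either time. GLP2 had 0.611 and 0.511 on its second probe set, Os.2321.1.S1_at. OsPrx30 had 0.641 and 0.482 on a further probe set, Os.15894.1.A1_a_at, where the LK and CK arrays overlapped at 3 d. The pair that differed belonged to LOC4349824, where Os.6844.1.S1_at had ratios of 1.01 and 1.17 and Os.6844.1.S1_x_at 0.96 and 1.05. Which of that gene's probe sets reads its transcript was not tested.

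Members were lower in LK relative to CK at 5 d than at 3 d in 87 of 104 cases, with a median difference of -0.25 in the log2 ratio. The LK mean itself was lower at 5 d than at 3 d in 71 members, and the CK mean was higher in 67. These counts have no background share, and the array as a whole moved in the same direction. The median log2 difference was -1.008 at 3 d and -1.313 at 5 d in the members, against 0.043 and -0.031 over the 25165. CK lay below its 6 h level in 58.9% of the 25165 at 3 d and in 41.8% at 5 d. The part of the change in the members that the whole array shares was not tested. The log2 ratio was lower at 5 d by over 0.5 in 29 members and higher by over 0.5 in 2. These 2, picked after their values were seen, were LOC4324833 (0.297 at 3 d and 0.544 at 5 d) and LOC4348445 (0.279 and 0.407). Over the 104 members the log2 ratios at 3 d and 5 d, which come from separate arrays, had Spearman's rho of 0.653, and 0.537 without the 10 deepest. Depth at 5 d and the CK level had a rho of 0.0273. Members vary together across arrays and were selected on these ratios, so the correlations are descriptive.

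The CK level of the members also differed between times. It was lower at 3 d than at 6 h in 75% of the members, against 58.9% of the 25165, and lower at 5 d than at 6 h in 65.4%, against 41.8%. In 5 members (4.81%, against 0.803% of the 25165) the CK signal at 3 d was less than 50% of that at 6 h. In 3 members (2.88%, against 0.715%) it was over 200% of it. The 5 include both member probe sets of LOC4342314. LOC4342108, picked for this difference, read 402, 394 and 340 in CK roots at 6 h and 103, 103 and 118 at 3 d. A low ratio at 3 d in such a gene is thus measured on a CK level that had itself become lower.

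The 6 h arrays took no part in the selection, and they show how the members stood before the sustained falls. The members were tested at 6 h with limma on the 6 h arrays, after signals below 10 had been set to 10, with Benjamini-Hochberg adjustment across the 25165 probe sets. The median LK minus CK difference of the members was -0.21 on the log2 scale, against -0.00068 for all 25165. The median LK/CK ratio was 0.862, against 0.998. Relative to the mean of the CK arrays, the median of the members was -0.192, -0.136 and -0.278 on the 3 LK arrays and 0.124, -0.0808 and -0.0304 on the 3 CK arrays (log2). The LK and CK arrays thus did not overlap in this median, with CK replicate 1 the highest. The LK mean was below the CK mean in 89 members, or 85.6%, against 50.8% of the 25165. Every LK array lay below every CK array in 38 members (36.5%), against a background of 6.49%, and above in 1, against 6.73%. The ratio was 0.8 or less in 30 members (28.8%), against 2.47%. A fixed ratio takes no account of the spread among replicates, which was wider in the members at 6 h. Their median coefficient of variation was 12% in CK and 8.74% in LK, against 8.39% and 6.83% over the 25165.

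**Figure D3:**
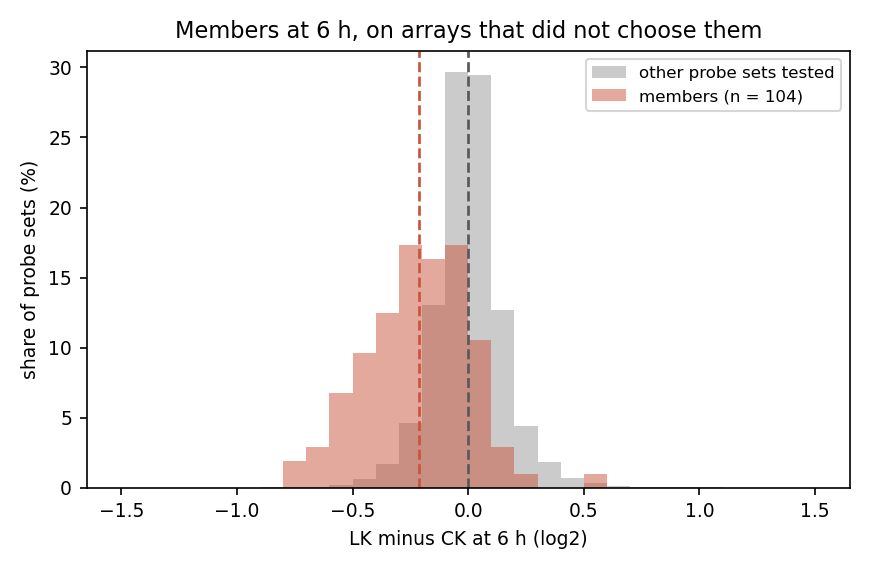
Distribution of the LK minus CK difference at 6 h on the log2 scale (x axis) for the 104 members and for the other probe sets tested, each as a share of its own set in percent (y axis). Dashed lines mark the medians, -0.21 for the members and close to 0 for the others.

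Few single members passed the 6 h test. An adjusted p under 0.05 was reached by 2 members, both lower in LK, where 0.0358% of the 25165 were called lower (9 probe sets). The unadjusted p was under 0.05 in 44 members that were lower (42.3%), against 3.81%, and in 1 that was higher (0.962%), against 3.97%. The first called member was LOC4327537 (Os.36161.1.S1_at), which has no description. Its CK arrays read 425, 331 and 352 and its LK arrays 230.02, 215 and 212, a difference of -0.75 ± 0.10 on the log2 scale (SE, n = 3 arrays a group, limma adjusted p = 0.031). Its 6 h ratio of 0.592 was the lowest of all members, and at 3 d and 5 d the ratios were 0.452 and 0.389. The second was the Bet v I gene of Os.47802.1.A1_at, with CK arrays at 926, 756 and 705 and LK arrays at 479.5, 493 and 511 (-0.68 ± 0.10, limma adjusted p = 0.049). The groups did not overlap for either gene. Both calls depended on single libraries. With any LK array, CK replicate 2 or CK replicate 3 left out in turn, no member had an adjusted p under 0.05 in limma, while 33 to 45 members were lower at an unadjusted p under 0.05.

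Of the 17 annotated members, 11 were lower at 6 h at an unadjusted p under 0.05 in limma. The share so called was 42.3% over all members and 3.81% over the 25165. The 17 are probe sets, and the 11 include both member probe sets of OsPrx30. Many descriptions came from the study's own listings of genes changed on these arrays, so this count is not independent evidence. OsSub6 read 796, 759 and 778 in CK roots and 565, 653 and 558 in LK roots (-0.40 ± 0.07, limma adjusted p = 0.11). CYP701A9 read 254, 259.9 and 315 against 172, 198 and 133 (-0.73 ± 0.15, limma adjusted p = 0.13). OsYSL12 read 838, 636 and 735 against 557, 481 and 434 (-0.58 ± 0.12, limma adjusted p = 0.13). In these 3 genes the LK and CK arrays did not overlap, yet none passed the adjusted threshold. OsPrx30 had the same pattern at a smaller size, with -0.22 ± 0.06 on Os.27793.1.S1_at (limma adjusted p = 0.29).

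Several members with high signals had LK and CK values that overlapped at 6 h. Pathogenesis-related protein 1 (Os.19861.1.S1_at) read 4575, 3829 and 3786 in CK roots and 4041, 4110.5 and 4049 in LK roots. OsGER6 read 3402, 3158 and 3081 against 3151, 3238 and 3157, and GLP2 read 4681, 4274 and 4341 against 4293, 4236 and 4245. Their log2 differences were 0.01 ± 0.07, -0.01 ± 0.05 and -0.06 ± 0.05 (SE). For OsNRT2.2 it was -0.14 ± 0.08, and for OsPrx81 (Os.47413.1.S1_at) 0.07 ± 0.11. Ratios of 30 members were 0.8 or less at 6 h, and their median ratios later were 0.462 at 3 d and 0.377 at 5 d. In the 59 members between 0.8 and 1 at 6 h the medians were 0.515 and 0.447. In the 15 members above 1 they were 0.537 and 0.395. Over the 104 members the log2 ratios at 6 h and 3 d had Spearman's rho of 0.284 and Pearson's r of 0.364 (0.18 and 0.117 without the 10 deepest), and those at 6 h and 5 d had 0.0932 and 0.287 (-0.0505 and -0.0202).

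**Figure D4:**
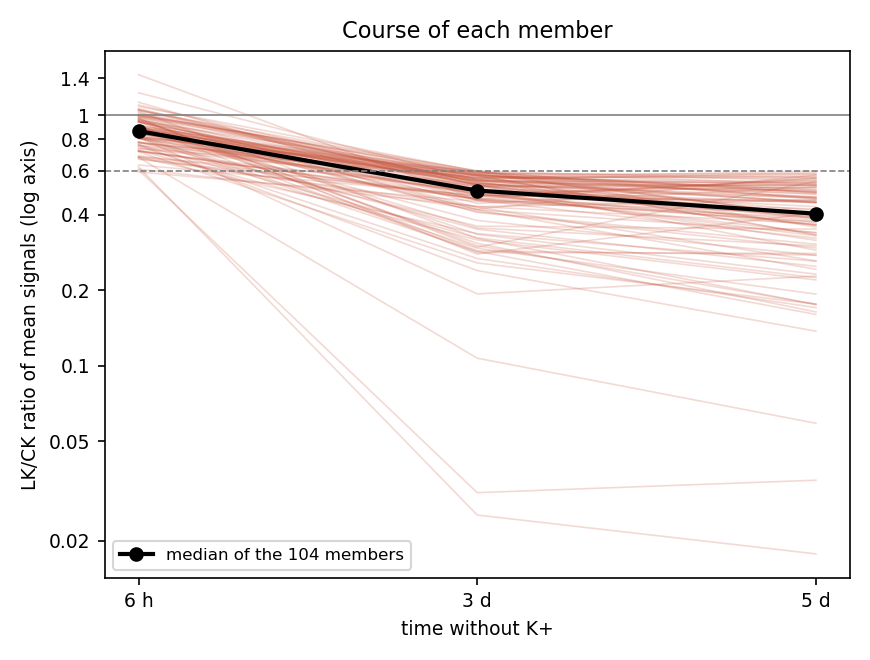
LK/CK ratio of mean signals (log axis) of each of the 104 members at 6 h, 3 d and 5 d, drawn as thin lines, with the median as a thick line. The median went from 0.862 at 6 h to 0.4998 at 3 d and 0.404 at 5 d. The dashed line is the ratio of 0.6 that the rule used at 3 d and 5 d.

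Genes were grouped into 37 lists by name or description, 9 of which held a member, and 647 list genes that were not members could be tested in the limma fit of all 18 arrays. Over all 37 lists, 82 of these were lower and 84 higher at 3 d, against 5.75% of all probe sets called lower and 8.5% called higher. At 5 d 146 were lower and 113 higher, against 12.8% and 10.5%. The list genes were picked by name or description and not at random. Descriptions came largely from genes that the study itself listed as changed on these arrays. The counts of lists filled partly by description are therefore not independent evidence, and the shares are given without a test. With quantile normalization the 3 d counts were 122 lower and 74 higher, and with median centring 119 and 72. Over all probe sets the share of 3 d calls that were lower went likewise from 40.4% to 54.4% and 55.1%, so the balance of directions at 3 d depends on the scaling.

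Among 19 class III peroxidase genes other than OsPrx30 and OsPrx81, 8 were lower and 7 higher at 3 d, and 11 were lower and 6 higher at 5 d. All 21 genes of this list, OsPrx30 and OsPrx81 among them, had descriptions from the study's own listings of genes changed on these arrays. The counts therefore come from genes already chosen as changed. They are not independent evidence and do not describe the peroxidase family. OsPrx118 went from 1303 in CK to 680 in LK at 5 d (-0.95 ± 0.09, limma adjusted p = 1.2e-06), while OsPrx98 went from 239 to 540 (1.17 ± 0.08, limma adjusted p = 1.6e-08). Of the 6 other germin-like genes, 2 were lower at both times and none higher under each scaling. These were OsGER7 (-0.40 ± 0.07 at 5 d, limma adjusted p = 0.00042) and OsGER4 (-0.14 ± 0.04, limma adjusted p = 0.016), with smaller differences than those of the members. OsGER1 had -0.04 ± 0.05 at 5 d (limma adjusted p = 0.63).

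Other pathogenesis-related and defence genes went both ways, with 2 of 11 lower and 2 higher at 3 d and again at 5 d. The chitinase gene OsChib3b (Os.170.1.S1_at) was lower at 5 d (-0.70 ± 0.06, limma adjusted p = 1.8e-07), and the chitinase gene Cht1 (Os.47564.1.S1_at) was higher (1.60 ± 0.15, limma adjusted p = 7.2e-07). In labdane diterpenoid synthesis, the pathway of rice phytoalexins and gibberellins, 2 of 14 genes other than the member CYP701A9 were lower and 1 higher at 3 d, and 1 was lower and none higher at 5 d. The gene called at 5 d was CYP76M7 (LOC4341447), which was also lower at 3 d (-0.62 ± 0.10, limma adjusted p = 0.00056, and -1.33 ± 0.10 at 5 d, limma adjusted p = 6.7e-08). The gene higher at 3 d was OsMAS (0.74 ± 0.22, limma adjusted p = 0.031), named after its values were seen. The median of these 14 genes was -0.63 at 6 h, where the lowest limma adjusted p was 0.28, 0.34 at 3 d and -0.03 at 5 d, on the log2 scale. Of 36 genes of metal transport and iron acquisition, 8 were lower and 5 higher at 3 d, and 9 were lower and 12 higher at 5 d. OsVIT2 (LOC4346978), a vacuolar iron transporter gene, was lower at 5 d (-0.74 ± 0.06, limma adjusted p = 1.1e-07), and OsYSL13, a relative of OsYSL12, was higher (0.63 ± 0.11, limma adjusted p = 0.00048). OsNRT2.3 was the only other gene tested in a list of 3 named nitrate and peptide transporters. It was lower at both times (-0.66 ± 0.18 at 3 d, limma adjusted p = 0.019, and -0.81 ± 0.18 at 5 d, limma adjusted p = 0.0031). Its signals were low, with means of 66 in CK and 42.1 in LK at 3 d and 60.1 and 33.9 at 5 d. Its probe set, Os.29842.1.S1_x_at, may also bind transcripts of related genes. Of 19 genes of nitrate and ammonium uptake and assimilation, a list with no member, 7 were lower and 1 higher at 3 d, and 11 were lower and 1 higher at 5 d. Lower calls outnumbered higher ones in this list at both times under quantile normalization and median centring too.

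The labelled tissue was compared with its markers. The root genes Lsi1, Lsi2, OsCASP1, OsSHR1 and OsSCR1 were measured on all arrays, and their summed signal ran from 9137 to 11008 over the 18 arrays. RCc3 and NAR2.1 matched no probe set by name. At 5 d the sum was 10697 to 10928 in CK and 9489 to 9868 in LK roots, and at 3 d 9893 to 10772 and 9137 to 10053. Lsi1 and Lsi2 gave most of this sum. The single root genes went both ways. OsCASP1, for a protein of the Casparian strip, was lower at both times (-0.55 ± 0.09 at 3 d, limma adjusted p = 0.00052, and -0.52 ± 0.09 at 5 d, limma adjusted p = 0.00048). Lsi2 was lower at 5 d (-0.20 ± 0.06, limma adjusted p = 0.024). OsSCR1 was higher at 5 d (0.38 ± 0.13, limma adjusted p = 0.043), and Lsi1 and OsSHR1 were called at neither time. Genes of photosynthesis also gave signal, none of them at 0. The sum of 8 such genes at 5 d was 6337 to 7281 in CK roots and 7673 to 9117 in LK roots, while at 3 d the ranges overlapped (5250 to 7078 and 5879 to 7468). Of the 7 genes tested, 4 were called higher at 5 d and none lower. CAB2R, with the largest part of the sum, was not called at 5 d (0.16 ± 0.10, limma adjusted p = 0.3). At 6 h, the time of the test on the members, the sum was 2602 to 3470 in CK and 3317 to 4047 in LK roots. The median log2 difference at 6 h was 0.40 over the 7 genes tested, whose lowest limma adjusted p was 0.16. The root genes summed to 10337 to 11008 in CK and 9754 to 10945 in LK roots at 6 h. The root hair gene CSLD1 read 87.4 to 104 in CK and 100 to 107 in LK roots at 5 d. The part of these differences in the values of the members was not tested. In a bulk sample, fewer cells of a type and less RNA per cell cannot be told apart.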

How the data were processed

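RNA from rice roots was hybridised to 18 Affymetrix arrays. The deposited values are linear signal intensities, normalized by the authors in dChip across the 18 arrays. The submitters' processing notes also name GCOS 1.0 and MAS5. Detection calls were not used. From these intensities the members were counted, with means and ratios on the linear scale. For tests, signals under 10 were raised to 10, log2 transformed, and the top 44% of probe sets by mean were fitted with limma 3.58.1 (R 4.3.3) with an intensity trend and Benjamini-Hochberg adjustment over 25165 probe sets. Fits were tested on simulated data. The 6 h fit used the 6 h arrays alone, since the members were chosen at 3 d and 5 d. List counts came from a fit of all groups, with 1 probe set a gene, the brightest. Genes came from the array annotation and RefSeq. Descriptions came from the study's listings of genes changed on these arrays and from its PCR primer list. Members and lists were chosen with earlier results of these data known, and list patterns were corrected for wrong families. Named genes were the annotated members (at most 5 a list), the 10 deepest, the 5 brightest, those called at 6 h and those nearest the limit. Exceptions are stated. Replicates were separate pools of seedlings, and the number of arrays limits the precision. Alternatives were other filters, floors, scalings and fits, and leaving out each array.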

Additional observations from a re-analysis of the deposited data

Results flagged for a closer look

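OsAffx.16008.1.S1_at, for which no gene was given, had LK arrays all above the CK arrays at 6 h and all below them at 3 d and 5 d. At 6 h the CK arrays read 338, 303 and 309 and the LK arrays 348, 354 and 340.3, a ratio of 1.1. Its ratios at 3 d and 5 d were 0.535 and 0.416, and the difference between times was not tested. It was chosen after its values were seen.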

How the results depend on the processing

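The count of 2 members called lower at 6 h by limma was the least stable result. It was 0 with no filter, 0 with a floor of 50, 0 with no intensity trend, 1 with the top 30% of probe sets and 7 with all 6 groups in 1 fit, and 0 to 2 with an array left out. At an unadjusted p under 0.05 the count of lower members was 44, and 33 to 54 over the alternatives, which were added after the data had been seen. With the replicate number as a block, 10 members were called at 6 h. The numbers do not pair the samples by the labels, and the deviations of same-numbered LK and CK arrays at 6 h correlated at 0.26, 0.11 and -0.02, so not every array was closest to its own number. The median log2 difference of the members at 6 h ran from -0.243 to -0.158. The group held 45 probe sets at a ratio of 0.5 or less, 240 at 0.7 or less, and 93 to 116 with an array left out. List genes called lower at 3 d numbered 82, and 50 with no filter, 50 with only the arrays compared and 52 to 87 with an array left out, 52 without CK replicate 2. At 5 d the 146 stayed within 1.5 times under every alternative run. Signals near the array median carry background, which limits the ratios of the deepest members.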
